A study of Mus musculus with 6 samples.

Results

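The genes that load peptide onto MHC class I molecules were measured in T helper cells of naive female mice. There were 10 of them, B2m, H2-K1, H2-D1, Tap1, Tap2, Tapbp, Nlrc5, Erap1, Calr and Pdia3, and a transcript cluster (the probes that an array summarizes into 1 value) counted as theirs when the platform annotation gave one of these symbols alone or among several. By this rule 30 of the 23410 annotated transcript clusters belonged to them, 26 with a single symbol and 4 with several. Of the 10 genes, 8 had a cluster of their own, 1 each except Nlrc5 with 19, while H2-K1 and H2-D1 were measured only by clusters that name both.

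The cells were CD4+TCRβ+ lymphocytes sorted from lymph nodes of naive females at 8 weeks of age. B6 females were wild-type C57BL/6J, and B6-ChrYSJL females had the same C57BL/6J background but fathers with the Y chromosome of SJL. The females of both groups came from mixed-sex litters and carry no Y chromosome themselves, so the comparison asks whether the father's Y chromosome goes with a difference in his daughters' T cells. Each strain had 3 pools, each pool of 5 mice was 1 array (Affymetrix Mouse Gene 1.0 ST), and the sort used CD4 and TCRβ with no marker of naive or memory state.

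MHC class I molecules display fragments of a cell's own proteins to CD8 T cells and natural killer cells, and nearly all nucleated cells, T helper cells included, make them. The proteasome cuts proteins into peptides, the TAP transporter carries these into the endoplasmic reticulum, an aminopeptidase trims them, and a complex of chaperones holds the heavy chain with its light chain, β2-microglobulin, until a peptide fits. In T cells the transactivator NLRC5 drives much of this set, and interferons raise it in most cell types.

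Interferon and NF-κB are known to act on class I genes, and promoter windows were searched for a fixed short pattern for each. Shown are the windows of the chains of the molecule, of Tap1 and of Erap1. Each runs 5′ to 3′ from 250 bases before to 50 bases after a transcript start in RefSeq (GRCm38.p6), the capitals mark a pattern match, and 8 of the 10 genes had such a window. B2m lies at chr2:122147437-122147736 (plus strand), H2-K1 at chr17:34000284-34000583 (minus strand), H2-D1 at chr17:35262844-35263143 (plus strand), Tap1 at chr17:34187306-34187605 (plus strand) and Erap1 at chr13:74639603-74639902 (plus strand).
B2m: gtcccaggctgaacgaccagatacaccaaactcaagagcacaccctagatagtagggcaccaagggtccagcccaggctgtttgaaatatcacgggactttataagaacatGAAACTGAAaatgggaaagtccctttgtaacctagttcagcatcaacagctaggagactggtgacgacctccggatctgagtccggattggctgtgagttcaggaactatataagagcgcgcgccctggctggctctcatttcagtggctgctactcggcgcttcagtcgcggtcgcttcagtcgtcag
H2-K1: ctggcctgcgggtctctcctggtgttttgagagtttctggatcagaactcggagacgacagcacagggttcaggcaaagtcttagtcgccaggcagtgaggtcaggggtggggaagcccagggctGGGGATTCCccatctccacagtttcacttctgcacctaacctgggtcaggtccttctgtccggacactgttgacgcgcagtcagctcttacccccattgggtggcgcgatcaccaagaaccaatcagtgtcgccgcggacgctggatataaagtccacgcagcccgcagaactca
H2-D1: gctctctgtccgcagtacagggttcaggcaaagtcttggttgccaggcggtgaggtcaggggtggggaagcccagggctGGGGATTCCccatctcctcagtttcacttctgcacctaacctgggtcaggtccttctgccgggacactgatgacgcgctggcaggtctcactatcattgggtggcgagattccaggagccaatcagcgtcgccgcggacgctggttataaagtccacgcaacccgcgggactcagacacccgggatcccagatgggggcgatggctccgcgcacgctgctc
Tap1: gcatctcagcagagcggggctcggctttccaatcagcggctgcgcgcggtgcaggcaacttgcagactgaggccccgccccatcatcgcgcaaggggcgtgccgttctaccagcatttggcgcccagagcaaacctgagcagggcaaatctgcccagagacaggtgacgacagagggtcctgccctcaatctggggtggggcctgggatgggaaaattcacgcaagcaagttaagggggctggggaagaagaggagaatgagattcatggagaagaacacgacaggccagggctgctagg
Erap1: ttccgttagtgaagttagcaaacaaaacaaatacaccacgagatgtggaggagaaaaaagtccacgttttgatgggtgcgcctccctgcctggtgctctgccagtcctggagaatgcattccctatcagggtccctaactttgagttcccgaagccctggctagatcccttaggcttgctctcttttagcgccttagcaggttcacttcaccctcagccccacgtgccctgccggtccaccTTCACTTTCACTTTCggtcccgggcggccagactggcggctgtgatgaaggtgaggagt

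The interferon pattern, GAAANNGAA on either strand, stood in the windows of B2m, from base −139 to −131, and of Erap1, where 2 matches on the minus strand overlap across the start site. That was 2 of 8 genes with a window, beside 9.76% of all 27025 genes in the table and 15 of 23 interferon-stimulated genes (65.2%). The NF-κB pattern, GGGNNTTCC, stood in the windows of H2-D1, from −171 to −163, and of H2-K1, from −125 to −117, beside 6.58% of all genes. H2-K1 had another annotated start, with a window at chr17:34000298-34000597, and counted from it the same match lies from −111 to −103. The windows shown of these heavy chain genes had 229 identical bases of 253 aligned (90.5%), so the 2 matches are not independent. Neither pattern was found in the windows of Tap1, Tapbp, Calr and Pdia3. Tap1 and the immunoproteasome gene Psmb9 are read in opposite directions from starts 226 bases apart, and their windows share 275 bases. A match is a description of letters and not of a bound site. A window without a match may still hold such an element, because only these fixed patterns of 9 letters were searched. Variants of another length or spacing, in the windows shown or in others, were not counted or marked.

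The values below are the deposited log2 values, and a difference is the mean of the B6-ChrYSJL pools minus the mean of the B6 pools, fitted with limma over all annotated clusters. None of the 8 genes with a cluster of their own differed between the strains at a false discovery rate (FDR, Benjamini-Hochberg adjusted p) of 0.05, and none did at an unadjusted limma p of 0.05. Over all annotated clusters 0.0171% passed the first threshold and 10.6% the second. With limma's trended and robust variances B2m and Calr passed the second threshold and no member gene the first. The median log2 fold change of the 8 genes was −0.04, beside −0.0036 for all annotated clusters, and the median size regardless of direction was 0.10 beside 0.08. The 95% confidence intervals of the 8 genes together ran from −0.30 to 0.44, so larger differences lay outside the interval of every one of them. In their mean all 8 lay above 5.98, the background level, under which 95% of 1210 clusters of odorant and pheromone receptors fell. The median SD between pools of a strain was 0.09 for these genes and 0.09 for all clusters above background. In sorted pools, fewer cells of a type and less RNA per cell cannot be told apart.

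**Figure D1:**
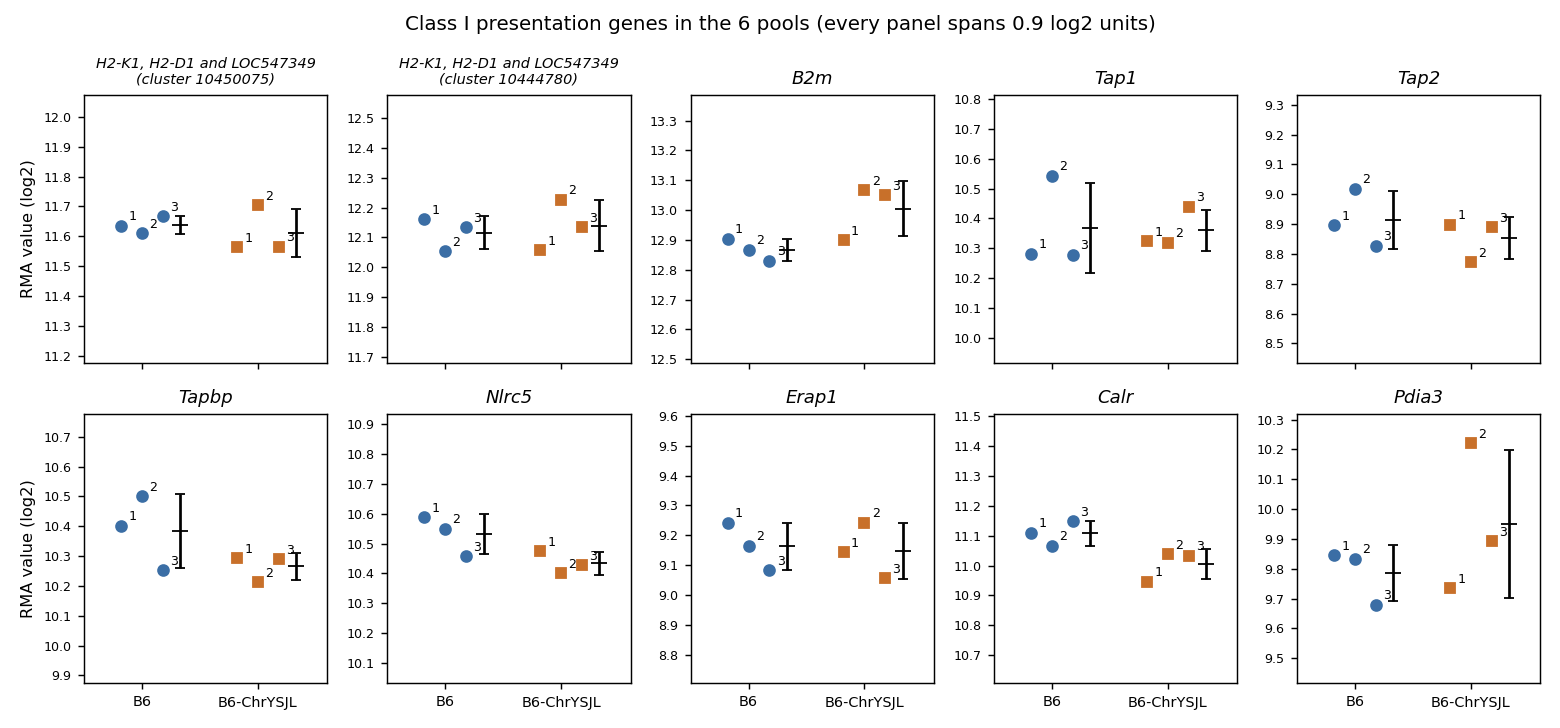
RMA values (vertical axes, log2, each panel spanning the same range) of the 2 clusters that name H2-K1 and H2-D1 and of the 8 genes with a cluster of their own, in 3 B6 pools (circles) and 3 B6-ChrYSJL pools (squares) labelled with their replicate numbers. The bars are the mean ± SD of each strain, and the groups overlap in every panel except that of Calr, where the B6-ChrYSJL pools lie lower.

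The heavy chains H2-K1 and H2-D1, which hold the peptide, had the differences nearest to 0 after Tap1 and Erap1. They are so alike in sequence that the platform assigns both of their clusters to both genes and to LOC547349, although the 2 clusters share none of the accessions listed for them. The first, 10450075, read 11.64, 11.61 and 11.67 in the B6 pools and 11.56, 11.70 and 11.57 in the B6-ChrYSJL pools. Both the highest and the lowest pool were B6-ChrYSJL, and the difference was −0.03 (SE 0.07, 95% interval −0.18 to 0.13, limma adjusted p = 0.916). The second, 10444780, read 12.16, 12.05 and 12.13 in B6 and 12.06, 12.23 and 12.13 in B6-ChrYSJL, a difference of 0.02 (SE 0.07, 95% interval −0.14 to 0.19, limma adjusted p = 0.931). Pool 2 of B6-ChrYSJL was highest in both clusters. Which heavy chain gave the signal cannot be told apart on this array.

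B2m encodes β2-microglobulin, the light chain without which heavy chains do not reach the surface. It read 12.90, 12.87 and 12.83 in B6 and 12.90, 13.07 and 13.05 in B6-ChrYSJL. B6-ChrYSJL pools 2 and 3 lay above all B6 pools, and pool 1 lay just under the highest of them. The difference of 0.14 (SE 0.07, 95% interval −0.03 to 0.30) had the smallest p of the 8 genes and did not pass (limma adjusted p = 0.533). Without B6-ChrYSJL pool 1 the unadjusted p of B2m fell under 0.05, at a difference of 0.19, and its groups no longer overlapped.

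Tap1 and Tap2 encode the chains of the peptide transporter. Tap1 read 10.28, 10.54 and 10.28 in B6 and 10.32, 10.32 and 10.44 in B6-ChrYSJL, so that 1 B6 pool lay above and the other B6 pools below all of B6-ChrYSJL. The difference was −0.01 (SE 0.09, limma adjusted p = 0.982), and without B6 pool 2 it was 0.08. Tap2 read 8.90, 9.02 and 8.83 in B6 and 8.90, 8.77 and 8.89 in B6-ChrYSJL, with pool 2 the highest in B6 and the lowest in B6-ChrYSJL. Its difference was −0.06 (SE 0.08, limma adjusted p = 0.809), and it was −0.01 without B6 pool 2, −0.02 without B6-ChrYSJL pool 2 and −0.10 without B6 pool 3.

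Tapbp encodes tapasin, which bridges the transporter and the empty heavy chain and edits its peptides. It read 10.40, 10.50 and 10.25 in B6 and 10.29, 10.21 and 10.29 in B6-ChrYSJL. B6 pools 1 and 2 lay above all B6-ChrYSJL pools and B6 pool 3 among them, and the difference was −0.12 (SE 0.08, 95% interval −0.30 to 0.06, limma adjusted p = 0.623). Without B6 pool 3 the difference was −0.19, at an unadjusted p under 0.05 and without overlap, and without B6 pool 2 it was −0.06. The platform also lists Tapbp for 2 clusters of the ribosomal protein gene Rps3a1, each of which shares 1 of its 8 accessions with the 6 of the tapasin cluster. One of them, 10421908, read 11.85, 11.77 and 12.02 in B6 and 11.95, 12.47 and 12.18 in B6-ChrYSJL, a difference of 0.32 (SE 0.13, limma adjusted p = 0.457) that passed an unadjusted p of 0.05. The other, 10499121, differed by 0.12 (SE 0.07, limma adjusted p = 0.573) without overlap, higher in B6-ChrYSJL, so both lay on the other side of 0 from the cluster of Tapbp alone.

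Erap1 encodes the aminopeptidase that trims peptides inside the endoplasmic reticulum, called ERAAP in mice. It read 9.24, 9.17 and 9.08 in B6 and 9.14, 9.24 and 9.06 in B6-ChrYSJL. Each strain covered nearly the whole range of the other, and the difference was −0.02 (SE 0.08, limma adjusted p = 0.956), with a sign that turned in some of the alternatives given in the closing section.

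Calr encodes calreticulin, a lectin chaperone of the loading complex, and was the 1 gene of the 8 whose groups did not overlap, where 17.1% of all annotated clusters had no overlap in either direction. It read 11.11, 11.07 and 11.15 in B6 and 10.95, 11.04 and 11.03 in B6-ChrYSJL. Every B6-ChrYSJL pool lay below every B6 pool, by a margin smaller than the SD within either strain, and the difference was −0.10 (SE 0.06, 95% interval −0.25 to 0.04, limma adjusted p = 0.604). Pdia3 encodes ERp57, the disulfide isomerase bound to tapasin. It read 9.84, 9.83 and 9.68 in B6 and 9.74, 10.22 and 9.89 in B6-ChrYSJL, where pool 2 stood above the rest. The SD was 0.25 in B6-ChrYSJL and 0.09 in B6, and the difference of 0.16 (SE 0.12, 95% interval −0.11 to 0.44) rested on that pool and came to 0.03 without it (limma adjusted p = 0.661 with all pools). The same pool exceeded the mean of the other B6-ChrYSJL pools by 0.41 in Pdia3, by 0.41 in the Rps3a1 and Tapbp cluster 10421908, by 0.14 in Erap1 and by 0.09 in B2m. It lay below that mean in Tap2 (−0.12), Tapbp (−0.08), Tap1 (−0.06) and the brightest Nlrc5 cluster (−0.05).

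**Figure D2:**
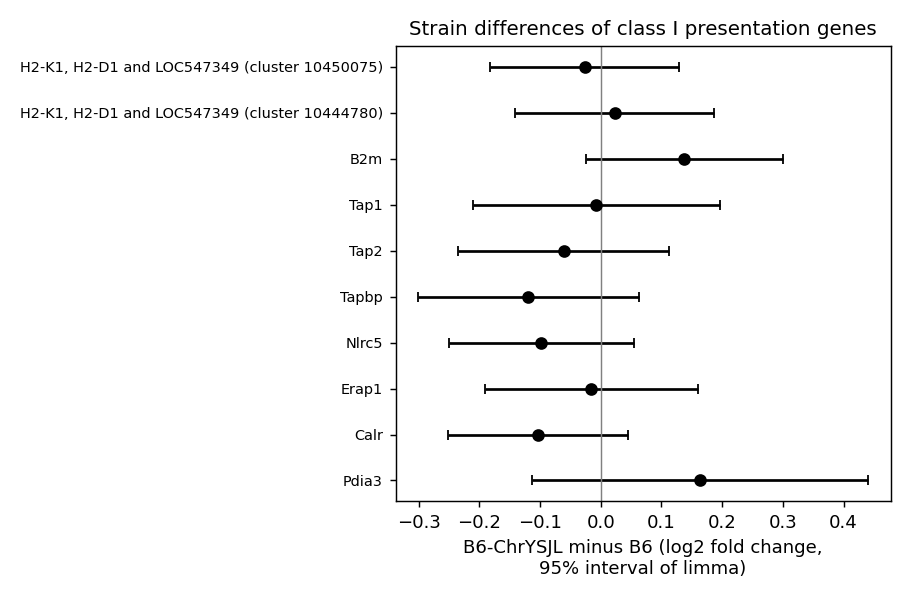
Log2 fold changes (horizontal axis, B6-ChrYSJL minus B6, points) with 95% confidence intervals from limma (bars) for the 2 heavy chain clusters and the 8 genes with a cluster of their own. Every interval includes 0, and that of Pdia3 is the widest, from −0.11 to 0.44.

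Nlrc5, the transactivator of class I genes, was represented by 19 clusters, so its difference between strains was measured many times over on the same arrays. Its brightest cluster, 10574098, read 10.59, 10.55 and 10.46 in B6 and 10.48, 10.40 and 10.43 in B6-ChrYSJL. B6 pools 1 and 2 lay above all B6-ChrYSJL pools and B6 pool 3 lay between them, a difference of −0.10 (SE 0.07, 95% interval −0.25 to 0.05, limma adjusted p = 0.633). The log2 fold changes of the 19 clusters ran from −0.20 to 0.04 with a median of −0.09. Of them 17 were negative and 2 positive (89.5% negative, beside 55.6% of all annotated clusters above background). Without B6 pool 2 the median was −0.03 with 16 negative, and without B6 pool 1 it was −0.15 with 18 negative. The clusters come from the same RNA of the same arrays and are not replicates of each other. One, 10574151, passed an unadjusted p of 0.05, at 9.12, 9.06 and 9.06 in B6 and 8.97, 8.78 and 8.88 in B6-ChrYSJL (difference −0.20, SE 0.07, limma adjusted p = 0.401). It was the 1 such cluster among the 26 member clusters with a single symbol, beside 10.6% of all annotated clusters. Of the 4 with several, 10421908 of Rps3a1 and Tapbp passed in the other direction. Of the 19 Nlrc5 clusters, 2 had no overlap between the strains, both lower in B6-ChrYSJL. Over all annotated clusters 17.1% had no overlap in either direction.

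The clusters of Nlrc5 did not rank the pools alike. Pool 2 of B6 was the highest array in 13 of the 19 (68.4%), beside 18.7% of the 14413 annotated clusters above background. Of the 10 Nlrc5 clusters with a mean under 9, it was highest in 8, and of the 3 with a mean of 10 or more, in 0. Pool 2 exceeded the mean of the other B6 pools by 0.30 on the log2 scale in the dimmest cluster, 10574133, and by 0.03 in the brightest, 10574098.

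**Figure D3:**
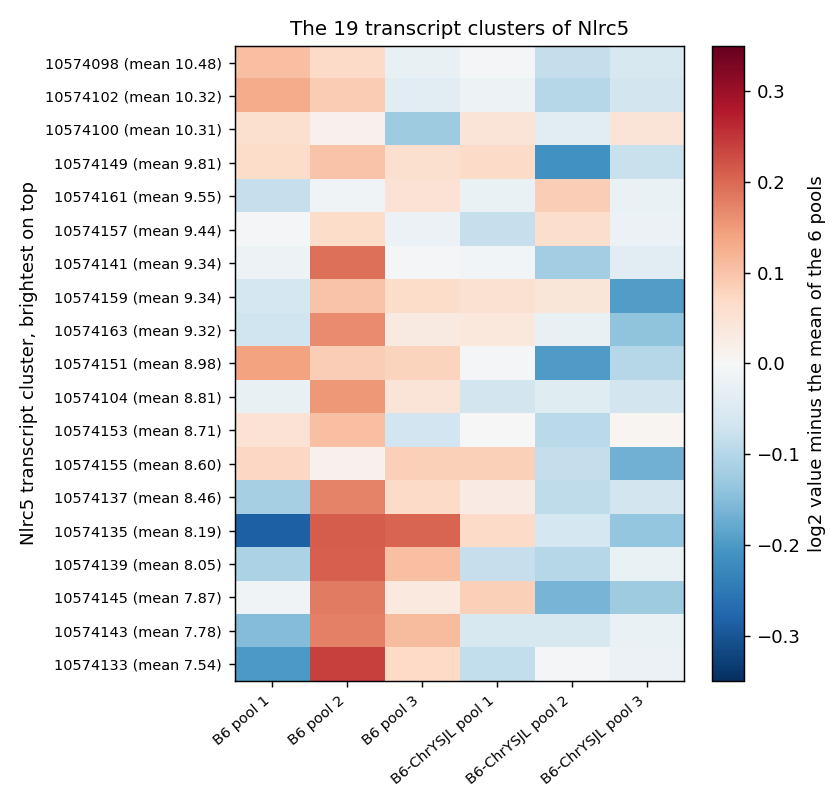
The 19 transcript clusters of Nlrc5 (rows, the brightest on top, with the mean log2 value of each) in the 6 pools (columns), coloured by the log2 value minus the mean of the 6 pools. Red marks values above that mean and blue below it, and the column of B6 pool 2 is reddest in the lower rows, the dim clusters, where it is the highest pool in 8 of the 10 with a mean under 9.

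Interferon-stimulated genes were also highest in that pool, 23 of 26 of them. All 26 such genes above background were higher in B6 pool 2 than in the mean of the other B6 pools, by a median of 0.56 (0.05 to 1.37 on the log2 scale), beside −0.0017 for all clusters above background. Irf7, an interferon-induced transcription factor, read 9.06, 9.73 and 9.19 in B6 and 9.20, 9.12 and 9.04 in B6-ChrYSJL, and the antiviral gene Ifit3, named after its values were seen, read 8.96, 10.30 and 8.88 in B6 and 9.23, 9.61 and 8.69 in B6-ChrYSJL. The class I genes lay on both sides of 0 by the same measure. It was 0.26 for Tap1, 0.17 for Tapbp, 0.16 for Tap2, 0.07 for Pdia3, 0.03 for Nlrc5, 0.00 for Erap1 and −0.06 for Calr, and the heavy chain clusters 10444780 and 10450075 were at −0.09 and −0.04. B2m was at −0.0002 there, and Tap1 had the largest step of the 8 genes. The relation of these steps to the patterns in the promoter windows was not tested. The part of the interferon-stimulated genes in these values was not tested. Between the strains the interferon-stimulated genes had a median of −0.12, 24 of 27 were negative, and none passed an FDR of 0.05 or an unadjusted p of 0.05 in limma. This direction rested on B6 pool 2, without which 20 of the 27 were positive and the median was 0.05, and without B6-ChrYSJL pool 3 the median was −0.02. Without B6 pool 2 the groups of Tap1 no longer overlapped, with B6-ChrYSJL higher. With fewer arrays groups overlap less often by construction, and a link to the interferon-stimulated genes was not tested.

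**Figure D4:**
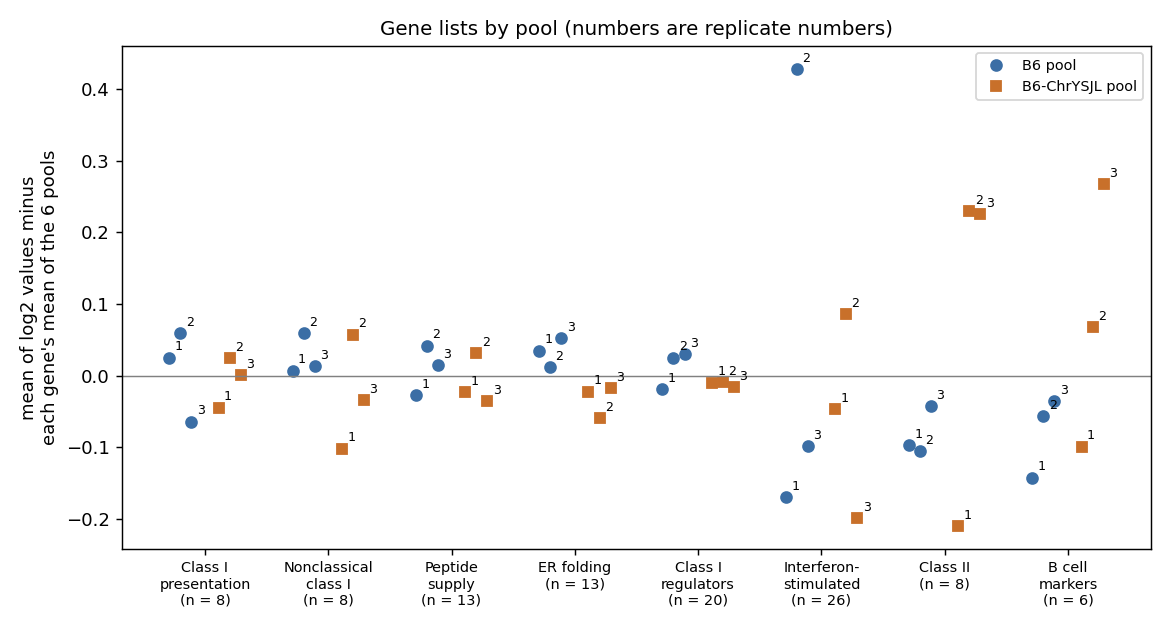
Mean over the genes of each list (n genes above background with a cluster of their own) of the log2 value minus that gene's mean over the 6 pools (vertical axis), for 3 B6 pools (circles) and 3 B6-ChrYSJL pools (squares) labelled with their replicate numbers. The class I presentation genes stay between −0.06 and 0.06, while B6 pool 2 stands at 0.43 for the interferon-stimulated genes and B6-ChrYSJL pool 3 at 0.27 for the B cell markers.

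The regulators of class I genes other than Nlrc5 had small differences in both directions. Of 22 listed (interferon receptors and kinases, IRF, RFX, NF-Y and NF-κB factors), 20 had a cluster of their own, none passed an FDR of 0.05 or an unadjusted p of 0.05 in limma, and the median log2 fold change was −0.03. Irf1, which binds interferon response elements of class I promoters, read 9.41, 9.70 and 9.68 in B6 and 9.49, 9.55 and 9.62 in B6-ChrYSJL (difference −0.05, SE 0.09, limma adjusted p = 0.885). The smallest p values were those of Rfxank, a subunit of the RFX factor that binds the class I and class II promoters, at −0.12 (SE 0.06, limma adjusted p = 0.533), of the kinase Tyk2 of the interferon receptors at −0.12, and of the factor Atf1 at −0.11.

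Genes that supply peptide from the cytosol lay on both sides of 0. Of 13 measured, none passed an FDR of 0.05 or an unadjusted p of 0.05 in limma, and the median was 0.00. Psmb8, an immunoproteasome subunit encoded beside Tap1, read 9.98, 10.16 and 10.25 in B6 and 10.20, 10.27 and 10.12 in B6-ChrYSJL (difference 0.07, SE 0.09). Psmb9, which shares the promoter region of Tap1, averaged 11.9 in both strains (difference 0.00, SE 0.06), and its B6 pool 2 was the highest of the 6, by less than the SE. The smallest p was that of Tapbpl, which encodes the tapasin-related peptide editor TAPBPR, at 8.95, 8.86 and 8.93 in B6 and 8.78, 8.80 and 8.76 in B6-ChrYSJL. These groups did not overlap, where 17.1% of all annotated clusters had no overlap in either direction. The difference was −0.14 (SE 0.06, limma adjusted p = 0.484). Lap3, a cytosolic aminopeptidase, followed at −0.25 (SE 0.12) and the proteasome activator Psme3 at 0.09 (SE 0.07).

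Genes listed for folding and glycan control in the endoplasmic reticulum, where Calr and Pdia3 work, are described by their counts. The list holds chaperones and also other genes, such as Sec61a1, Sec61b and Bcap31. Of 13 measured besides those, 11 were negative and 2 positive (84.6% negative, beside 55.6% of all annotated clusters above background). Their median was −0.10, beside −0.02 for those clusters, and was −0.05 without B6-ChrYSJL pool 2, and none passed an FDR of 0.05 or an unadjusted p of 0.05 in limma. Uggt1, the folding sensor that returns unfinished glycoproteins to calreticulin, read 8.89, 8.96 and 9.03 in B6 and 8.82, 8.83 and 8.79 in B6-ChrYSJL, without overlap (difference −0.14, SE 0.07, limma adjusted p = 0.487). Pdia6, a disulfide isomerase, was at −0.15 (SE 0.08) and Ganab, the catalytic chain of glucosidase II, at −0.12 (SE 0.06), both also without overlap. Hsp90b1 (−0.11) and Prkcsh (−0.10) were lower without overlap too, and Bcap31 (0.10) was higher without overlap. Over all annotated clusters 17.1% had no overlap in either direction. Calr, at −0.10, lay near the median of the 13 genes, and Pdia3, at 0.16, lay above all 13.

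Of the nonclassical class I and class I-like genes, 14 had a cluster of their own and 8 of these lay above background, with a median log2 fold change of 0.01 over the 14. None passed an FDR of 0.05. Mr1, which presents vitamin B metabolites to mucosal-associated invariant T cells, was the 1 gene at an unadjusted p under 0.05, and read 8.05, 7.91 and 8.06 in B6 and 7.76, 7.87 and 7.85 in B6-ChrYSJL. Its groups did not overlap, with a difference of −0.18 (SE 0.07, limma adjusted p = 0.441). Of all annotated clusters 10.6% had an unadjusted p under 0.05 and 17.1% had no overlap in either direction. H2-Q4, a class I gene of the Q region, followed at −0.16 (SE 0.08, limma adjusted p = 0.532), and the dim H2-M9 was at 0.18 (SE 0.10). Among clusters that name several of these genes, chosen after their values were seen, the one of H2-Q6 and H2-Q8, heavy chains of the Qa-2 antigen, read 10.45, 10.43 and 10.47 in B6 and 10.07, 10.24 and 10.27 in B6-ChrYSJL. All B6-ChrYSJL pools lay below all B6 pools, a difference of −0.25 (SE 0.07, limma adjusted p = 0.349). The clusters of H2-T23, the Qa-1 antigen, with a pseudogene (−0.07, SE 0.06) and of H2-T9, H2-T22 and H2-T10 (−0.05, SE 0.08) differed less, and both were highest in B6 pool 2.

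Markers of other cell types were checked because B cells, myeloid cells and CD8 T cells also make class I molecules. Cd4 (11.5 in both strains) and Cd3e (12.5 in both) stood far above background in every pool, and 11 T helper markers had a median difference of −0.03, the smallest p being those of the kinase Zap70, the receptor chain Cd247 and the lineage factor Zbtb7b, at −0.11, −0.10 and −0.09. Cd8a, the co-receptor that binds class I molecules, read 6.77, 6.93 and 7.11 in B6 and 6.63, 6.34 and 6.22 in B6-ChrYSJL (difference −0.54, SE 0.12, limma adjusted p = 0.277), and Cd8b1 differed by −0.28 and Gzmb, which lay below background, by −0.16. These were 3 of 11 CD8 and natural killer markers at an unadjusted p under 0.05, which 10.6% of all annotated clusters passed. The list's mean level was 6.48 to 6.54 in B6 and 6.35 to 6.38 in B6-ChrYSJL.

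Of 12 B cell markers measured, 6 lay above background and 11 had positive differences, with a median of 0.18 that was 0.08 without B6-ChrYSJL pool 3. Fcrla (0.26) and Ebf1 (0.25) passed an unadjusted p of 0.05, as 10.6% of all annotated clusters did, and Ms4a1 (CD20) was at 0.37. Ebf1 and Ms4a1 lay below background, where a difference is not read as a change in level. The list's mean level was 5.71 to 5.83 in B6 and 5.72 to 6.10 in B6-ChrYSJL. Of 9 class II genes measured, 5 had positive and 4 negative differences, with a median of 0.02. Among them H2-Ab1 (0.64, SE 0.22) and H2-Eb1 (0.37, SE 0.13) were higher and the dim H2-Eb2 (−0.23) lower at an unadjusted p under 0.05, with no gene past an FDR of 0.05 in limma. B6-ChrYSJL pools 2 and 3 had the highest mean over the 8 class II genes above background, and the same pools had the highest B2m. Not every class II gene was so, and H2-Oa was highest in B6 pool 2, Ctss in B6 pool 1 and H2-Ob in B6-ChrYSJL pool 1. The part of other cell types in the values of B2m was not tested. Lyz2, the lysozyme of macrophages, read 6.94, 7.24 and 7.72 in B6 and 6.48, 7.44 and 7.25 in B6-ChrYSJL. Of 13 myeloid and dendritic markers 5 lay above background, and the list's mean level was 5.69 to 5.85 in B6 and 5.77 to 5.79 in B6-ChrYSJL, with Itgax at 0.17, Fcgr1 at 0.18 and Itgam at −0.10. The mean level of 9 stromal and endothelial markers was 6.53 to 6.55 in B6 and 6.597 to 6.64 in B6-ChrYSJL, without overlap. Pdpn, Col1a2 and Col3a1, at 0.20, 0.18 and 0.18, passed an unadjusted p of 0.05 with no overlap. Over all annotated clusters 10.6% passed that p and 17.1% had no overlap. The median of the 9 stromal and endothelial markers was 0.05. The part of these cells in the class I values was not tested. The erythroid genes Alas2 and Slc4a1 were at −0.08 and 0.08.

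The genes whose values followed these most closely over the 6 pools are given as a description, from 12289 genes compared and with no test. The mean of the 8 class I genes was most like Zfp759, Agk, Tomm20l, Marchf6 and Ripk3, at Pearson's r of 0.98 to 0.99. Tap1 was most like Urb2, Tcf3, Mapt, Plcxd1 and Ntn1 (r of 0.97 to 0.99), and the brightest Nlrc5 cluster was most like Desi1, Tgfb1, Atpaf2, Gabbr1 and Asxl2 (r of 0.98 to 0.99). The members themselves were left out of the genes compared, so none of them could appear. None of the genes named was a listed regulator or in the interferon list. Between the 8 class I genes r ran from −0.62 (B2m with Nlrc5) to 0.92 (Tap2 with Tapbp).

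The 6 arrays correlated with each other at 0.991 to 0.993 over all clusters and had medians of 6.41 to 6.44. The number of arrays limits the precision. With 3 pools a strain, the smallest p of an exact permutation test is 0.1.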

How the data were processed

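RNA of sorted CD4+TCRβ+ lymph node cells was amplified and measured on 6 Affymetrix Mouse Gene 1.0 ST arrays, 3 of B6 and 3 of B6-ChrYSJL pools of 5 mice. The authors computed log2 values with RMA (background correction, quantile normalization, median polish) in Partek Genomic Suites. GCOS and mm9 also stand in the submitters' processing notes. These deposited log2 values, 35556 transcript clusters by 6 arrays, were taken as they are, so each value is relative to equal array distributions and a shift shared by all transcripts is not seen.

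Gene symbols came from the platform annotation and were updated by gene identifier from a RefSeq table (21698 of 21789 single-symbol clusters matched). All 23410 clusters with a symbol entered 1 limma model (version 3.58.1, R 4.3.3, lmFit and eBayes) of B6-ChrYSJL minus B6 on the 6 arrays, and p-values were adjusted by Benjamini and Hochberg's method over the whole set. A gene with several clusters is given by its brightest in counts and medians. The replicate numbers did not pair the strains (correlations of same-numbered deviations −0.0093, −0.031 and 0.0017). Promoter windows of 300 bases came from RefSeq GRCm38.p6 and were searched on both strands; coordinates are of that build. The model was tested on simulated data. Figures were made in matplotlib 3.10.9 under Python 3.11.15.

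The members and gene lists were chosen with earlier results of these data known. Genes named were the members with all clusters of theirs, the 3 genes of each other list with the smallest p, list members past an FDR of 0.05 (none), Cd4, Cd3e, Cd8a, Lyz2, Psmb8, Psmb9, Irf1, Irf7, and the 5 genes most like the member mean, Tap1 and Nlrc5; others were named after their values were seen, and some items under this rule are not reported here. As alternatives, the variance model, array weights, filter on dim clusters and normalization were changed, the methods' unmoderated model was run, the replicate number entered as a block, and arrays were left out in turn. Counting the heavy chain clusters with the 8 genes and the medians of gene lists and Nlrc5 clusters with each array left out were added after seeing the data.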

Additional observations from a re-analysis of the deposited data

How the results depend on the processing

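Over 15 alternatives no class I presentation gene passed an FDR of 0.05, and the lowest adjusted p was 0.217, for B2m. Of 150 log2 fold changes, 141 kept their direction and 9 turned, all of them of Erap1, Tap1 or 1 heavy chain cluster. Erap1 turned to 0.0234 with repeated quantile normalization and lay between −0.0631 and 0.0298 with each array left out. Tap1 turned to 0.0106 with array weights and lay between −0.0524 and 0.0803 with each array left out. The heavy chain cluster 10444780 lay between −0.0204 and 0.0645 with each array left out. The number of member genes at an unadjusted p under 0.05 was 0 as reported, 2 with trended and robust variances (where 47 of all clusters passed the FDR) and 0 to 2 with each array left out, Tapbp without B6 replicate 3 and B2m and Pdia3 without B6-ChrYSJL replicate 1. The number without overlap was 1, became 2 (Nlrc5 and Calr) with arrays centred on their median and was 1 to 4 with each array left out, 4 without B6-ChrYSJL replicate 1 (B2m, Nlrc5, Calr and Pdia3), 3 without B6 replicate 3 (Tapbp, Nlrc5 and Calr), and 2 without B6 replicate 1 (B2m and Calr) or B6 replicate 2 (Tap1 and Calr). With fewer arrays, groups overlap less often by construction; otherwise the cause was not tested.

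With the replicate block 0 member genes had an unadjusted p under 0.05 (smallest 0.134), as with the methods' unmoderated model (smallest 0.0543). Counting the heavy chain clusters with the 8 genes left these counts at 0 and 1 and the median log2 fold change at −0.02. All 8 genes lay above background; limits of the array were not compared with each other.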
